A study of Lotus japonicus with 6 samples.

Results

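The CYP82 and CYP76 families of cytochrome P450 genes were followed in leaves of Lotus japonicus, a model legume. A gene was a member if its name on the array began with CYP82 or CYP76 followed directly by a letter, and names with a common locus identifier counted as 1 gene. This gave 54 genes with 108 probes, 30 genes named CYP82 and 24 named CYP76, out of 2881 genes on the array. The letter after the family number gives the subfamily. Of the genes that could be tested, 17 were CYP82A, 2 CYP82B, 10 CYP82C, 1 CYP82G, 8 CYP76B, 12 CYP76E and 2 CYP76F. The letters LT in 5 of the names are not explained in the sources used here, and these genes were grouped by the letter that precedes LT.

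All plants were MG20, raised in vitro on 1/2 MS medium. One group was wild type leaf (3 arrays). The other was leaf of 3 transgenic lines, each an independent line labelled as expressing the MYB transcription factor LjMyb14 constitutively from a Lotus ubiquitin promoter, with 1 array per line; these are called the lines below. How many plants went into an array and how old they were is not given, and each line is represented by a single sample. Signals were measured on a custom Agilent 1-colour array.

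Cytochrome P450s are membrane-bound haem enzymes that insert oxygen into small molecules, and plants use them widely in specialised metabolism. CYP82 and CYP76 both belong to the plant CYP71 clan. CYP82 enzymes known from other plants include Arabidopsis CYP82G1, which forms volatile homoterpenes, Arabidopsis CYP82C4, which hydroxylates a coumarin secreted under iron shortage, and tobacco CYP82E4, a nicotine demethylase; a pea CYP82A transcript is known to respond to wounding. CYP76 enzymes known from other plants act mainly on terpenoids, such as Catharanthus CYP76B6, a geraniol hydroxylase of iridoid synthesis, Arabidopsis CYP76C enzymes that oxidise linalool, and rice CYP76M enzymes of diterpenoid phytoalexins. None of the Lotus genes below has been given a function in the sources used here.

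The variance of the difference between wild type arrays 1 and 3 was 0.545 times the sampling noise estimated from spots of a common probe, while within either group every other pair of arrays was at 2.27 to 8.61 times. Arrays 1 and 3 therefore differed by less than sampling noise and were averaged into 1 sample, and n is 2 for wild type and 3 for the lines. The study's design text calls the wild type samples biological replicates, which the values of arrays 1 and 3 do not show, and the p-values measure the spread between these samples only. Of the transgene's own name, LjMYB14, 1 probe could be tested, and no rise was detected. Its log2 signal was -6.07, -5.20 and -5.89 on wild type arrays 1, 2 and 3 and -5.79, -4.62 and -6.03 on lines 1, 2 and 3 (log2 fold change 0.11, adjusted p = 0.939). Where the array's LjMYB14 probes lie relative to the introduced sequence is not given, so they leave the label unchecked, and every direction below is that of the lines labelled LjMyb14-overexpressing. LjMYB76a, another MYB gene, rose (log2 fold change 7.54, adjusted p = 0.000189). Among codes for leaf genes only YABBY, a family of lateral organ regulators, had names on the array, and 5 of 6 were well above background on all 6 arrays. Of 86 genes coded MADS, a family that includes floral regulators, 33 were well above background on every array, and the codes NIN (nodule) and LBD (root and organ boundary) had no names. In leaf RNA, fewer cells of a type and less RNA per cell cannot be told apart.

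In the lines, CYP82 genes lay mostly above wild type and CYP76 genes mostly below it. Each value is a log2 signal after subtraction of the 75th percentile of its own array, and fold changes are the lines over wild type. Counts of genes are at the brightest tested probe of each gene. Of 30 CYP82 genes, 2 rose at an adjusted p under 0.05 with at least 2-fold change, CYP82A_LjSGA_052400.1 and CYP82CLT_1_ntc, and none fell. Of 22 tested CYP76 genes none rose and none fell. Of all 2487 genes tested, 2.21% rose and 1.09% fell by the same rule. At an unadjusted p under 0.05, limma gave 15 CYP82 genes, all with positive fold changes, and 7 CYP76 genes, 6 of them negative. As shares, 50% of CYP82 and 31.8% of CYP76 genes passed, where 19.5% of all genes did. The share was 24.2% for other CYP71-clan genes and 27.4% for P450 genes of other clans, so that of CYP76 lay near these. These counts rest on few arrays. With line 1, 2 or 3 left out the CYP82 count was 2, 20 or 13, and the CYP76 count 5, 9 or 8. With quantile normalization the counts were 7 and 7, and with scaling on spike-in probes 1 and 4. Fits with 1 wild type sample are left out of these counts. The number over all probes moved too. Of 5039 probes 1003 passed in the 5-sample fit. With line 1, 2 or 3 left out 629, 1438 or 992 passed. With quantile normalization 1022 passed, and with scaling on spike-in probes 358.

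The median log2 fold change was 0.56 for CYP82 and -0.64 for CYP76, against -0.09 for all genes. In the separate lines the CYP82 median was 0.75, 0.43 and 0.63 in lines 1, 2 and 3, and the CYP76 median was -0.70, -0.50 and -0.19. Every line thus had the CYP82 median above and the CYP76 median below 0. The medians of other CYP71-clan genes were also below 0 in lines 1, 2 and 3, at -0.25, -0.23 and -0.22. Those of P450 genes of other clans were -0.28, -0.42 and -0.17. In line 3 the CYP76 median thus lay no lower than that of the other CYP71-clan genes. On the slide, row 2 carried wild type and line 1, and row 1 carried the other lines, so within a row only line 1 can be set against wild type. With the row as a block no gene of either family was called, where 1 of all 2487 genes rose and 0 fell. That fit takes the change from line 1 alone, so its medians, 0.75 and -0.70, repeat those of line 1. Of the CYP82 genes 24 had a positive and 6 a negative fold change, and of the CYP76 genes 2 had a positive and 20 a negative one. As shares, 20% of CYP82 and 90.9% of CYP76 genes were negative, against 57.9% of all genes, 70.3% of the other CYP71-clan genes and 72.6% of P450 genes of other clans. The 128 other tested genes of CYP71-clan families had a median of -0.26, with 4 that rose and 3 that fell, and 124 P450 genes of other clans had a median of -0.37, with 1 that rose and 6 that fell. The difference between the families was described and not tested, since genes of a family share sequence and are not replicates.

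**Figure D1:**
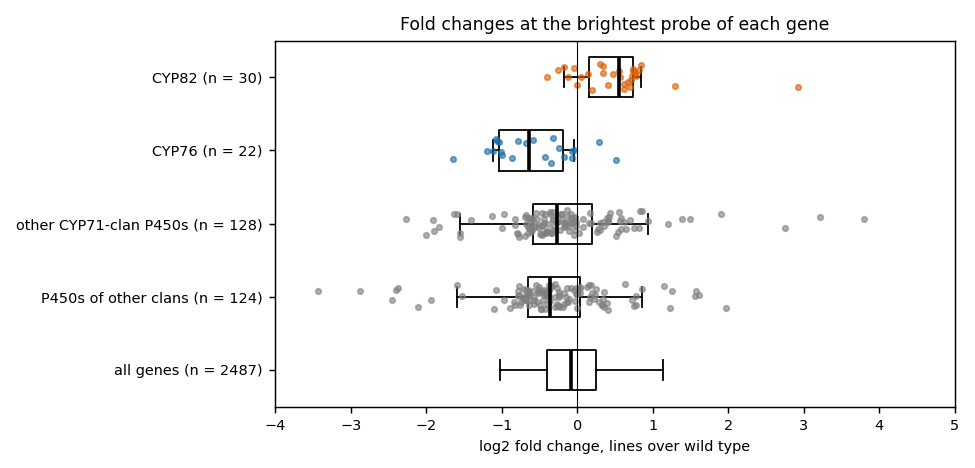
Log2 fold change (lines over wild type) at the brightest probe of each gene, for 30 CYP82 genes, 22 CYP76 genes, 128 other CYP71-clan P450 genes, 124 P450 genes of other clans and all 2487 genes tested. Boxes span the quartiles with the median as a thick line, whiskers run from the 5th to the 95th percentile, points are genes (none are drawn for all genes), and the CYP82 median of 0.56 lies above and the CYP76 median of -0.64 below those of the other lists.

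In 16 CYP82 genes every line lay above every wild type array, and in none did every line lie below, where 15.4% of all genes were separated upward and 21.1% downward. In 12 CYP76 genes every line lay below every wild type array, and in 1 every line lay above. As shares, 53.3% of CYP82 genes were separated upward and 54.5% of tested CYP76 genes downward. Of the other CYP71-clan genes, 18 of 128 were separated upward and 34 downward. Of P450 genes of other clans, 9 of 124 were separated upward and 46 downward. The direction of both family medians was the same in all 17 alternative settings, with ranges of 0.31 to 0.75 for CYP82 and -0.78 to -0.31 for CYP76. These settings reuse the same arrays and some repeat each other's medians, so their number is no measure of support. Scaling on spike-in probes moved the median of all genes from -0.09 to -0.23. Such scaling shifts all genes alike, so it leaves the distance of a family from the median of all genes as it was, 0.65 for CYP82 and -0.55 for CYP76. That distance was 0.38 for CYP82 with quantile normalization and -0.25 for CYP76 with normexp correction.

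**Figure D2:**
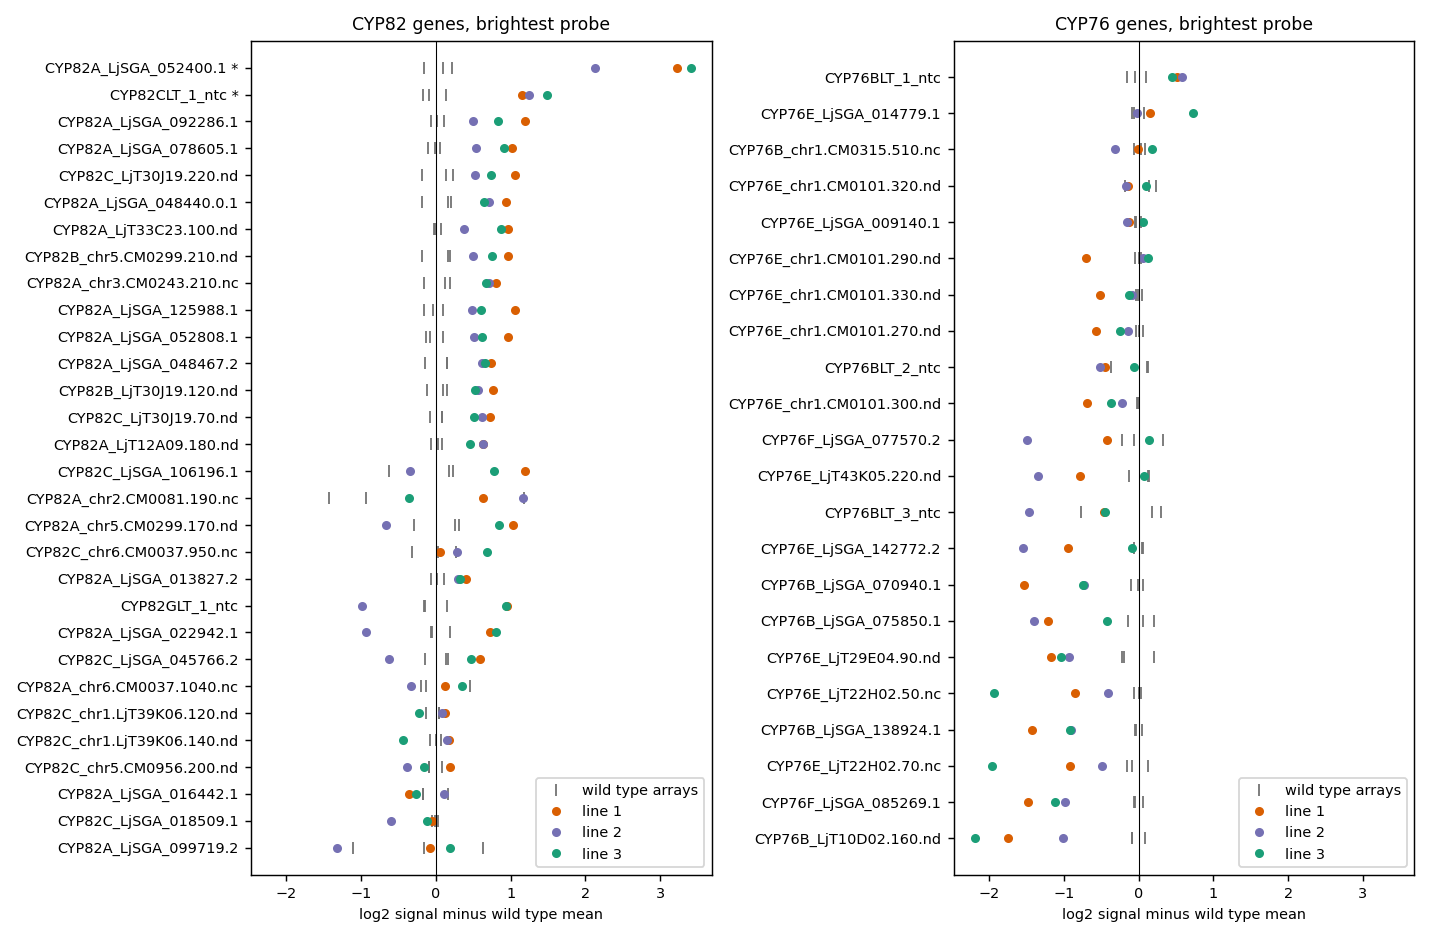
Log2 signal minus the wild type mean at the brightest probe of each of the 30 tested CYP82 genes (left) and 22 tested CYP76 genes (right), sorted by fold change. Coloured points are lines 1, 2 and 3, grey ticks are the 3 wild type arrays, and asterisks mark the 2 genes that rose. In 16 CYP82 genes all coloured points lie to the right of all ticks, and in 12 CYP76 genes they lie to the left.

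The largest change in either family was that of CYP82A_LjSGA_052400.1. Its signal was -3.32, -3.58 and -3.20 on wild type arrays 1, 2 and 3 and -0.20, -1.29 and -0.01 on lines 1, 2 and 3. The groups did not overlap, and line 2 was the lowest of the lines. The gene rose 7.57-fold, from -3.42 ± 0.23 (SD, n = 2) to -0.50 ± 0.69 (SD, n = 3), a log2 fold change of 2.92 with an SE of 0.43 and a 95% confidence interval from 1.85 to 3.99 (limma adjusted p = 0.0337). This was the 15th largest positive fold change among the 2487 genes. The dimmer probe of the gene gave -4.24, -4.90 and -4.53 in wild type and -1.56, -3.25 and -0.91 in the lines. Its log2 fold change of 2.74 was close to that of the brightest probe, but with line 2 farther from the other lines the adjusted p was 0.114. The call of the brightest probe was lost without wild type array 2 (2.76, adjusted p = 0.273), without wild type arrays 1 and 3 (3.08, adjusted p = 0.210), without line 1 (2.77, adjusted p = 0.137) and without line 3 (2.68, adjusted p = 0.0594). It was also lost with the slide row as a block (3.22, adjusted p = 0.190) and with scaling on spike-in probes (2.78, adjusted p = 0.152). Without line 2 it was kept at 3.31 (adjusted p = 0.00860), and with normexp background correction the log2 fold change was 1.74.

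CYP82CLT_1_ntc, grouped with CYP82C, was the other gene that rose. Its signal was -2.55, -2.24 and -2.47 in wild type and -1.22, -1.13 and -0.89 in lines 1, 2 and 3. All lines were above all wild type arrays and lay close together. The rise was 2.45-fold, from -2.38 ± 0.19 (SD, n = 2) to -1.08 ± 0.17 (SD, n = 3), with a log2 fold change of 1.29 and an SE of 0.22 (limma adjusted p = 0.0459). The dimmer probe also rose, with a log2 fold change of 1.10 (adjusted p = 0.0499). Called probes of the families were thus 3 of 92 tested, where 3.43% of all probes were called in either direction. Both calls of CYP82CLT_1_ntc lay near the threshold. The brightest probe gave 1.43 without wild type array 2 (adjusted p = 0.275), 1.16 without wild type arrays 1 and 3 (adjusted p = 0.344), 1.36 without line 1 (adjusted p = 0.169) and 1.20 without line 3 (adjusted p = 0.0866). It gave 1.16 with the slide row as a block (adjusted p = 0.307) and 1.15 with scaling on spike-in probes (adjusted p = 0.838). With every probe tested, dim ones included, the adjusted p was 0.0650, and with normexp correction the log2 fold change was 0.78, under the 2-fold minimum.

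**Figure D3:**
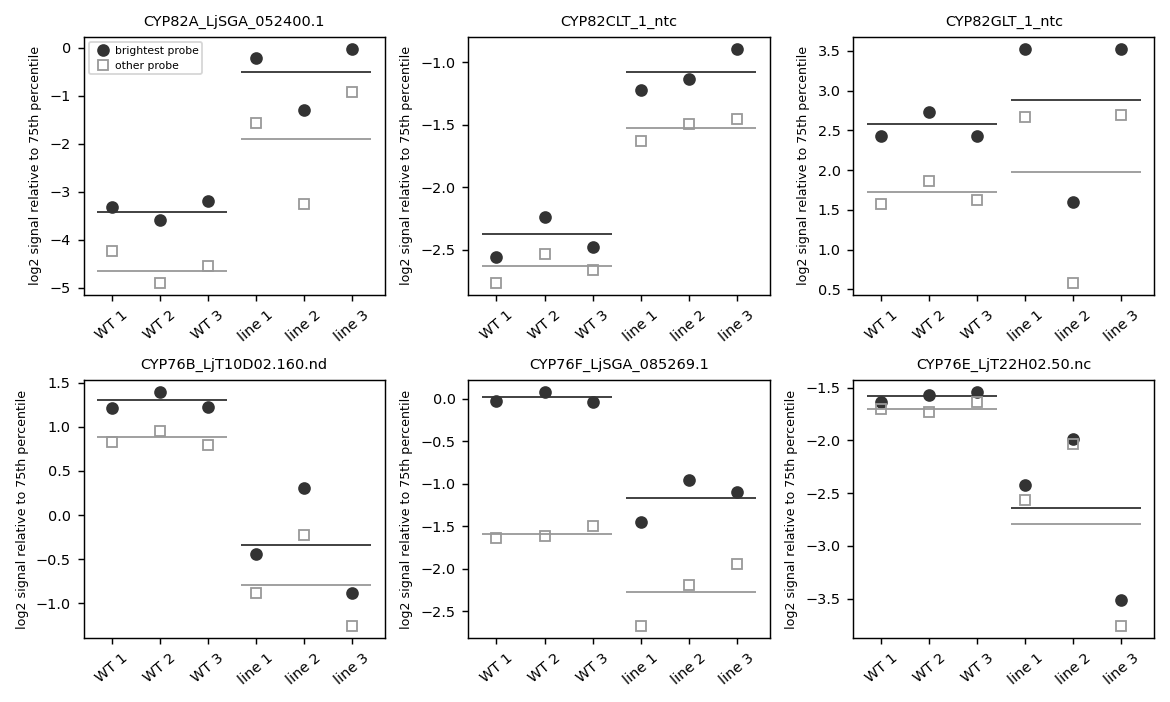
Log2 signal on each of the 6 arrays, after subtraction of that array's 75th percentile, for 3 CYP82 genes (top) and 3 CYP76 genes (bottom). Filled circles are the brightest probe, open squares the other probe, and horizontal lines the group means with wild type arrays 1 and 3 counted as 1 sample. CYP82A_LjSGA_052400.1 and CYP82CLT_1_ntc are higher in all lines, CYP82GLT_1_ntc is higher in lines 1 and 3 and lower in line 2, and the CYP76 genes are lower in all lines.

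The other 14 CYP82 genes whose lines all lay above wild type differed less and did not pass the test. Their log2 fold changes ran from 0.34 to 0.84, with 13 of them at 0.5 or more, and their adjusted p from 0.137 to 0.390. CYP82A_LjSGA_092286.1 gave -0.62, -0.78 and -0.71 in wild type and 0.47, -0.23 and 0.10 in the lines (0.84, 95% confidence interval 0.18 to 1.50; adjusted p = 0.172). CYP82A_LjSGA_078605.1 gave -0.15, -0.08 and -0.24 in wild type and 0.88, 0.40 and 0.77 in the lines (0.82, interval 0.25 to 1.40; adjusted p = 0.137). In both genes line 1 was the highest line and line 2 the lowest, and the second probe was not well above background on any array. CYP82A_LjT12A09.180.nd gave 6.22, 6.13 and 6.28 in wild type and 6.81, 6.82 and 6.64 in the lines (0.57, interval 0.09 to 1.05; adjusted p = 0.194). All lines lay above all wild type arrays, and the dimmer probe gave 0.52. With quantile normalization the log2 fold change of the brightest probe was 0.21. CYP82A_LjSGA_013827.2 had the smallest difference of these genes, 0.34, from 6.40, 6.24 and 6.32 in wild type to 6.70, 6.59 and 6.62 in the lines.

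Several of these genes followed each other closely. After each probe's own mean over the 6 arrays was subtracted, CYP82A_chr3.CM0243.210.nc, CYP82A_LjSGA_048467.2 and CYP82B_LjT30J19.120.nd differed on no array by more than 0.10 at the brightest probe and 0.15 at the dimmer probe. The same held for CYP82A_LjT12A09.180.nd with CYP82C_LjT30J19.70.nd, at most 0.07 and 0.09, and for CYP82A_LjSGA_052808.1 with CYP82A_LjSGA_125988.1, at most 0.08 and 0.12. CYP82B_chr5.CM0299.210.nd came within 0.15 and 0.13 of CYP82B_LjT30J19.120.nd, and within 0.19 and 0.12 of CYP82A_LjSGA_048467.2. Pairs were sought with a gap under 0.2 at both probes. Whether their probes share signal was not tested, since probe sequences were not used here. A pair of unlike names, CYP76B_chr1.CM0315.510.nc and CYP76E_chr1.CM0101.320.nd, also came within 0.15 and 0.13. Both genes of that pair changed little between the groups, with log2 fold changes of -0.04 and -0.07. How often other genes of the array came this close was not counted. The 16 CYP82 genes that lay above wild type may thus not all be separate measurements. For the first trio the dimmer probes gave larger log2 fold changes than the brightest, 1.12 against 0.73, 1.14 against 0.67 and 1.17 against 0.62 (adjusted p of the dimmer probes 0.0716, 0.0893 and 0.0774).

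By subfamily, the median log2 fold change was 0.67 for 17 CYP82A genes, of which 11 were separated upward and 1 of them rose, and 0.68 for 2 CYP82B genes, both separated upward. For 10 CYP82C genes it was 0.24, with 3 separated upward and 1 that rose. The CYP82C genes separated upward were CYP82CLT_1_ntc and a pair on clone LjT30J19. On that clone CYP82C_LjT30J19.70.nd, CYP82B_LjT30J19.120.nd and CYP82C_LjT30J19.220.nd gave 0.62, 0.62 and 0.78 (adjusted p = 0.170, 0.186 and 0.186). CYP82C_LjT30J19.220.nd measured 2.87, 2.45 and 2.77 in wild type and 3.70, 3.16 and 3.38 in lines 1, 2 and 3. CYP82C_LjT30J19.70.nd measured 6.29, 6.13 and 6.29 in wild type and 6.93, 6.83 and 6.72 in the lines. CYP82B_LjT30J19.120.nd measured 4.62, 4.40 and 4.67 in wild type and 5.29, 5.09 and 5.05 in the lines. All 3 neighbours on the clone thus lay above wild type in every line, while none passed the test. With quantile normalization a pair of them had smaller log2 fold changes, 0.26 for CYP82C_LjT30J19.70.nd and 0.23 for CYP82B_LjT30J19.120.nd.

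In other CYP82 genes the lines overlapped with wild type. CYP82C_chr1.LjT39K06.120.nd and CYP82C_chr1.LjT39K06.140.nd, neighbours on chromosome 1, gave -0.01 (95% confidence interval -0.53 to 0.52) and -0.04 (-0.69 to 0.62), and signs this close to 0 changed between settings. The first measured -1.94, -1.95 and -2.11 in wild type and -1.86, -1.90 and -2.22 in the lines. The second measured -1.80, -1.87 and -1.95 in wild type and -1.69, -1.72 and -2.31 in the lines. In both, line 3 was the lowest of all 6 arrays. CYP82C_chr5.CM0956.200.nd gave -3.40, -3.23 and -3.40 in wild type and -3.12, -3.70 and -3.48 in the lines (-0.12, adjusted p = 0.848). CYP82C_LjSGA_018509.1 gave 3.94, 3.99 and 3.91 in wild type and 3.91, 3.36 and 3.84 in the lines (-0.25, adjusted p = 0.641). At its dimmer probe every line lay below wild type, with a log2 fold change of -0.77 (adjusted p = 0.121). Line 2 was the lowest array for both genes at the brightest probe. Of CYP82A, CYP82A_LjSGA_016442.1 gave -0.01, 0.33 and -0.01 in wild type and -0.20, 0.27 and -0.10 in the lines (-0.17), with a dimmer probe at 0.00. All lines of this gene lay within or near the wild type values. CYP82A_LjSGA_099719.2 gave -5.95, -4.20 and -5.00 in wild type and -4.92, -6.16 and -4.64 in the lines (-0.40), but 1.07 at its dimmer probe, so its probes disagreed in sign. On contig CM0037 of chromosome 6, CYP82C_chr6.CM0037.950.nc gave 0.35 at its brightest probe, where line 1 lay among the wild type values, and 1.04 at its dimmer probe, where all lines lay above wild type (adjusted p = 0.527 and 0.0822). CYP82A_chr6.CM0037.1040.nc gave 0.05.

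In 4 CYP82 genes, chosen after the values were seen, lines 1 and 3 lay above and line 2 below every wild type array; this order was found in 5.35% of all genes and in none of the CYP76 genes. CYP82GLT_1_ntc, the only CYP82G name, gave 2.43, 2.73 and 2.43 in wild type and 3.53, 1.60 and 3.52 in lines 1, 2 and 3, and its dimmer probe gave the same order. Its fitted log2 fold change of 0.30 (adjusted p = 0.849) averages changes of 0.95, -0.99 and 0.94. CYP82A_chr5.CM0299.170.nd gave -0.35, -0.95 and -0.40 in wild type and 0.37, -1.33 and 0.18 in the lines. In that gene the dimmer probe did not give this order. CYP82C_LjSGA_045766.2 gave 4.07, 3.79 and 4.10 in wild type and 4.53, 3.31 and 4.40 in the lines. CYP82A_LjSGA_022942.1 gave -3.77, -4.01 and -4.03 in wild type and -3.23, -4.89 and -3.15 in the lines. Line 2 was the lowest line in 19 of the 30 CYP82 genes, or 63.3%, against 44.0% of all genes. The spike-in probes of line 2 stood at 0.81 on this scale, against -0.37 to 0.25 on the other arrays. Whether this bears on how often line 2 was the lowest line was not tested.

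Among CYP76 genes the largest difference was that of CYP76B_LjT10D02.160.nd. It measured 1.22, 1.40 and 1.22 on wild type arrays 1, 2 and 3 and -0.44, 0.30 and -0.88 on lines 1, 2 and 3. All lines were below all wild type arrays, with line 3 the lowest. The log2 fold change was -1.65 with an SE of 0.38 and a 95% confidence interval from -2.59 to -0.70, and it did not pass the test (limma adjusted p = 0.0908). The dimmer probe gave -1.67 (adjusted p = 0.0731). CYP76B_LjT10D02.300.nd, the other gene named for this clone, passed background on a single wild type array, at 1 of its probes, so it was not tested.

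CYP76F_LjSGA_085269.1 had the smallest adjusted p of the family, 0.0623. It measured -0.03, 0.08 and -0.04 in wild type and -1.45, -0.95 and -1.10 in the lines (-1.19, 95% confidence interval -1.77 to -0.62), with -0.68 at its dimmer probe (adjusted p = 0.254). CYP76B_LjSGA_138924.1 measured 0.86, 0.94 and 0.85 in wild type and -0.53, -0.01 and -0.02 in the lines (-1.08, interval -1.69 to -0.47; adjusted p = 0.0876). Its second probe was not well above background on any array. In the fit that counts all 6 arrays singly, CYP76B_LjT10D02.160.nd, CYP76F_LjSGA_085269.1 and CYP76B_LjSGA_138924.1 were called lower, with adjusted p of 0.0225, 0.0112 and 0.0179. Without line 2 the first pair of them was called lower, at -1.97 (adjusted p = 0.0194) and -1.30 (adjusted p = 0.0344). With normexp correction CYP76F_LjSGA_085269.1 was called at -1.01 (adjusted p = 0.0333). Over all 2487 genes, 27 were called lower in the 5-sample fit. That number was 84 with all 6 arrays counted singly, 78 without line 2 and 18 with normexp correction. The absence of a CYP76 call in the 5-sample fit therefore does not show that these genes were equal in both groups.

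In all, 8 of 22 CYP76 genes had a log2 fold change below -1. A log2 fold change of at least 1 in either direction was found in 281 of all 2487 genes. It was found in 18 of 128 other CYP71-clan genes and 18 of 124 P450 genes of other clans. Counted in either direction, CYP76 also had 8 of 22 genes, and CYP82 had 2 of 30. Falls alone were not counted for the other lists. Of the 8 CYP76 genes, CYP76B_LjSGA_138924.1 was above -1 with normexp correction (-0.98), without scaling (-0.996) and without line 1 (-0.91). Leaving out the scaling shifts all genes alike, and CYP76E_LjT22H02.50.nc was then also above -1 (-0.98). CYP76B_LjSGA_070940.1, CYP76B_LjSGA_075850.1 and CYP76E_LjT29E04.90.nd lay nearer to -1 than these in the 5-sample fit, so the same shift moves them above it. Not every setting is given here for each of the 8 genes. CYP76E_LjT22H02.50.nc measured -1.64, -1.57 and -1.54 in wild type and -2.42, -1.99 and -3.51 in the lines (-1.06, adjusted p = 0.289). Its neighbour CYP76E_LjT22H02.70.nc measured -3.23, -3.02 and -3.30 in wild type and -4.07, -3.63 and -5.11 in the lines (-1.12, adjusted p = 0.258). In both, line 3 was far below lines 1 and 2, with changes of -1.93 and -1.96 from the wild type mean. Without line 3 the log2 fold changes were -0.63 for CYP76E_LjT22H02.50.nc and -0.70 for CYP76E_LjT22H02.70.nc, and with normexp correction -0.64 and -0.38, so neither was then below -1. CYP76E_LjT29E04.90.nd was the only CYP76E gene past an unadjusted p of 0.05 at its brightest probe, at -1.04 (adjusted p = 0.0804) with 1.59, 2.03 and 1.62 in wild type and 0.65, 0.90 and 0.78 in the lines. CYP76B_LjSGA_075850.1 gave -1.01 (adjusted p = 0.200), and CYP76B_LjSGA_070940.1 lay just past the edge of this count (adjusted p = 0.168), each with all lines below wild type.

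The 5 CYP76E genes that neighbour each other on contig CM0101 of chromosome 1 had smaller fold changes, and none passed the test. Their log2 fold changes ran from -0.43 to -0.07, with adjusted p from 0.367 to 0.909. CYP76E_chr1.CM0101.300.nd measured 2.33, 2.34 and 2.30 in wild type and 1.64, 2.11 and 1.97 in the lines (-0.43). CYP76E_chr1.CM0101.330.nd measured 2.45, 2.47 and 2.53 in wild type and 1.97, 2.39 and 2.35 in the lines (-0.24). CYP76E_chr1.CM0101.270.nd measured 2.15, 2.06 and 2.10 in wild type and 1.52, 1.95 and 1.85 in the lines (-0.32). In these 3 genes every line lay below every wild type array, and line 1 was the lowest. After each probe's own mean was subtracted, CYP76E_chr1.CM0101.300.nd and CYP76E_chr1.CM0101.330.nd differed by at most 0.14 on any array at the brightest probe. CYP76E_chr1.CM0101.290.nd measured -0.10, -0.14 and -0.18 in wild type and -0.84, -0.08 and -0.01 in the lines (-0.17). CYP76E_chr1.CM0101.320.nd measured -1.83, -2.15 and -1.73 in wild type and -2.10, -2.13 and -1.86 in the lines (-0.07). In this pair the lines overlapped with wild type at the brightest probe, where line 1 alone was low in CYP76E_chr1.CM0101.290.nd. At the dimmer probe of CYP76E_chr1.CM0101.290.nd all lines lay below all wild type arrays, with a log2 fold change of -0.11.

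**Figure D4:**
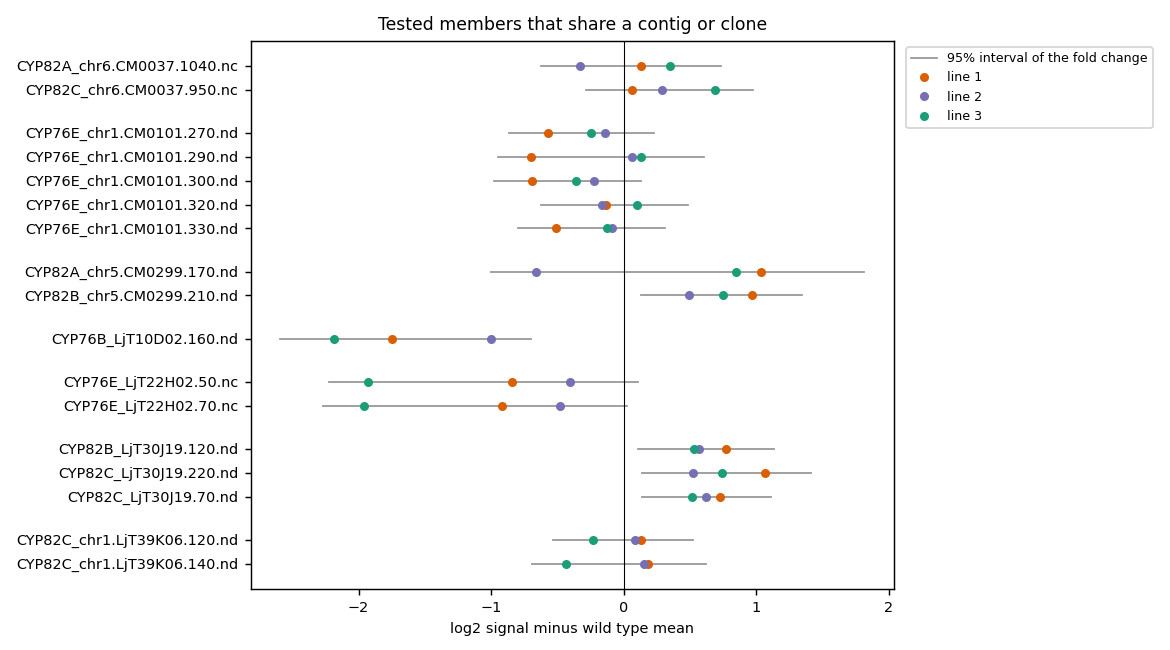
Log2 signal minus the wild type mean in lines 1, 2 and 3 (points) with the 95% confidence interval of the fold change (bars), at the brightest probe of tested members whose names share a contig or clone. The untested partner of CYP76B_LjT10D02.160.nd is not drawn. The 3 genes of LjT30J19 lie above 0 in every line, and the 2 genes of LjT22H02 below it.

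A pair of CYP76 genes had positive fold changes. CYP76BLT_1_ntc measured -1.20, -1.04 and -1.31 in wild type and -0.63, -0.56 and -0.70 in the lines, and was the only CYP76 gene with all lines above wild type (0.52, 95% confidence interval 0.03 to 1.00; adjusted p = 0.230). In this gene the lines lay close together. CYP76E_LjSGA_014779.1 measured -4.11, -3.97 and -4.14 in wild type and -3.89, -4.07 and -3.33 in the lines (0.29, adjusted p = 0.647). Its second probe was not well above background on any array. CYP76B_chr1.CM0315.510.nc was the CYP76 gene with the fold change nearest to 0, with 2.31, 2.23 and 2.36 in wild type and 2.28, 1.96 and 2.47 in the lines (-0.04, interval -0.62 to 0.53). CYP76E_LjSGA_009140.1 measured 1.55, 1.62 and 1.54 in wild type and 1.46, 1.43 and 1.64 in the lines (-0.07, adjusted p = 0.878), with all lines above wild type at its dimmer probe (0.25). The median log2 fold change was -0.90 for 8 CYP76B genes and -0.37 for 12 CYP76E genes. CYP76F had 2 genes, at -1.19 and -0.59.

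The probes of a gene mostly pointed the same way. Both probes could be tested in 24 CYP82 genes, of which 18 had both fold changes positive and 2 both negative, and in 16 CYP76 genes, of which 1 had both positive and 12 both negative. The share with the same sign was 83.3% and 81.3%, against 86.5% of 2001 genes on the whole array. The largest gap between probes of a gene was 1.47 in CYP82, at CYP82A_LjSGA_099719.2, and 0.52 in CYP76, at CYP76F_LjSGA_085269.1. Over the dimmer probes the median was 0.52 for CYP82 and -0.45 for CYP76.

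**Figure D5:**
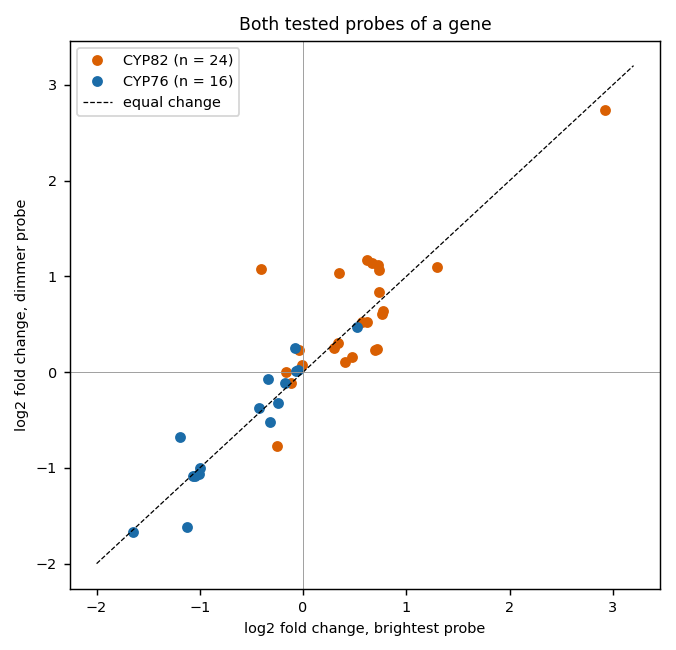
Log2 fold change at the dimmer probe against that at the brightest probe, for 24 CYP82 and 16 CYP76 genes with both probes tested. The dashed line marks equal change, and 18 CYP82 genes have both values above 0 and 12 CYP76 genes have both below.

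Detection limited few members. At the brightest probe 49 of the 52 tested genes were well above background on all 6 arrays. The other 3 were CYP82A_chr2.CM0081.190.nc (1 wild type array and all 3 lines), CYP82C_LjSGA_106196.1 (1 wild type array and 2 lines) and CYP76F_LjSGA_077570.2 (3 wild type arrays and 2 lines). For CYP82A_chr2.CM0081.190.nc wild type array 2 measured -4.07, just above the lines at -4.63, -4.08 and -5.62, while wild type arrays 1 and 3 measured -6.18 and -6.68. Besides CYP76B_LjT10D02.300.nd, CYP76G_LjSGA_036048.1 was not tested, because neither of its probes was well above background on any array.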

How the data were processed

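Leaf RNA of 3 wild type samples and 3 transgenic lines was hybridised to 1 array each. Per the file headers and the submitters' processing notes, scans were read with Agilent Feature Extraction 10.7.3.1. Its processed intensity, used here as deposited, had background and spatial trend removed array by array, without scaling across arrays. The authors' value table matched it in 91068 of 91068 cells (relative tolerance 1e-06). All arrays shared 1 slide and 1 scan time, so neither could be tested as a batch.

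From these intensities, log2 signal was computed and lowered by the 75th percentile of the 14642 spots that are no controls, per array (percentile intensity 364 to 404; 71.7% to 78.0% of spots well above background). Outlier spots (32 to 78 per array) were left out, no non-control spot was saturated, and spots of a probe were averaged. Probes well above background, in at least 0.5 of their spots, on at least 3 of 6 arrays were tested (5039 of 6358), with limma 3.58.1 in R 4.3.3 and Benjamini-Hochberg adjustment over all of them. A gene was called at an adjusted p under 0.05 and at least 2-fold change, at its probe with the highest mean. Wild type arrays 1 and 3 were averaged, and the fit had 3 residual and 2.54 prior degrees of freedom. Precision is limited by how few arrays there are.

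The members, lists and design were chosen with earlier results of these data known. The genes named are those with a called probe, the 5 largest positive and negative fold changes per family, the gene with the brightest probe per subfamily and their neighbours on a contig, and some others named after their values were seen. Gene names are the array's own. None of 54 names or 49 locus identifiers matched the reference table, so positions are given only as a name carries them. Alternatives covered the samples, blocks, background correction, scaling, filter, probe choice and left-out arrays. The normexp correction used the median spot intensity, a choice made after seeing the data, because the files hold no mean intensity.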

Additional observations from a re-analysis of the deposited data

How the results depend on the processing

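Of the alternatives run, none turned the direction of either family median. The CYP82 median moved to 0.75 with the slide row as a block, where it repeats that of line 1, and to 0.31 with quantile normalization. The CYP76 median moved to -0.31 with normexp correction. The count of genes that rose was 0 with the slide row as a block, 0 with scaling on spike-in probes, 1 with normexp and 1 with no filter on dim probes, and the count that fell was 1 with normexp and 3 with all 6 arrays counted singly. With the replicate number as a block it was also 3, and 2 genes rose; same-numbered samples deviated together with r of 0.0097, 0.17 and 0.073, so the numbers were not taken to pair the samples. Leaving out arrays gave 0 to 2 genes that rose, 0 to 2 that fell, and medians from 0.49 to 0.72 for CYP82 and from -0.70 to -0.43 for CYP76. The direction turned for genes near 0. CYP82C_chr1.LjT39K06.120.nd was at 0.0071 with 6 arrays, singly or with the replicate block, 0.13 with the row block, 0.080 unscaled, 0.032 with quantile, and from -0.074 to 0.11 with arrays left out. CYP82C_chr1.LjT39K06.140.nd was at 0.18 with the row block, 0.050 unscaled, 0.0044 with quantile and from -0.14 to 0.16 with arrays left out. CYP82C_chr5.CM0956.200.nd was at 0.19 with the row block and from -0.27 to 0.017 with arrays left out. CYP76B_chr1.CM0315.510.nc was at 0.025 with normexp, 0.042 unscaled and from -0.16 to 0.092 with arrays left out. CYP76E_chr1.CM0101.320.nd was at 0.019 unscaled and from -0.25 to 0.12 with arrays left out. Leaving out arrays also gave from -0.32 to 0.093 for CYP76E_chr1.CM0101.290.nd, from -1.04 to 0.23 for CYP82A_LjSGA_099719.2 (positive without wild type array 2 or line 2) and from -0.023 to 0.94 for CYP82GLT_1_ntc (negative without line 1 or line 3). The cause was not tested in these cases. Over all probes, 116 higher and 57 lower became 240 and 168 with 6 arrays singly, 217 and 131 with the replicate block, 2 and 0 with the row block, 16 and 9 with spike-in scaling and 86 and 24 with no filter, and from 4 and 0 without wild type arrays 1 and 3 to 257 and 154 without line 2. A lone wild type sample was assumed to vary like the lines, and dim probes limit what could be read for members near background.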
